A study of Mus musculus with 9 samples.

Results

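The intercalated disc is the end-to-end contact between heart muscle cells, and 10 of its genes were followed here in mouse hearts: Gja1, Gja5, Gjc1, Dsp, Pkp2, Jup, Dsc2, Dsg2, Cdh2 and Ctnna3. They were taken by symbol, as 10 of the 23457 rows of a table of read counts, and each was found once. Poly(A) RNA came from 9 adult C57BL/6J hearts, 5 wild type (WT) and 4 labelled as germline Parkin knockouts (KO), with 1 library per heart. Parkin is a ubiquitin ligase that marks damaged mitochondria for removal. A germline deletion affects every cell, so a difference cannot be assigned to the muscle. The labels call the tissue whole heart, while the protocol took the ventricular apex. The mice were an adjunct to work on Drosophila, and the comparison asks which transcripts differ with the genotype. Every direction given rests on the labels.

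Gap junctions, desmosomes and adherens junctions share the disc. Connexins form channels that pass current from cell to cell, with connexin Cx43 (Gja1) the main one of ventricular muscle, Cx40 (Gja5) known from atria, conduction fibres and arterial endothelium, and Cx45 (Gjc1) known from nodal and conduction cells. In the desmosome, the cadherins Dsg2 and Dsc2 join neighbouring cells, and plakoglobin (Jup), plakophilin (Pkp2) and desmoplakin (Dsp) tie them to desmin filaments. In the adherens junction, N-cadherin (Cdh2) is linked to actin through catenins, among them the αT-catenin Ctnna3, and plakoglobin serves both junctions. Inherited defects of the desmosomal genes are a known cause of arrhythmogenic cardiomyopathy.

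RefSeq promoters (GRCm38.p6) were at hand for 5 of the 10 genes. The 250 bases before the transcript start are shown for 3 genes. These are Gja1, the leading ventricular connexin, Jup, and Gja5, the connexin known from the conduction system. In the counts as deposited Gja1 fell and Jup rose, but neither change was called with GC and length trends removed. Dsp and Ctnna3 also had entries, which are not shown. Each sequence shown reads 5′ to 3′ on the gene's strand, with matches to 5 short motifs in capitals. The motifs, searched on both strands, were the GC box GGGCGG, the GATA site AGATAA, the NKX2-5 core AAGTG, the T-box core GGTGTG and the AP-1 site TGANTCA.
Gja1, chr10:56377050-56377299, plus strand: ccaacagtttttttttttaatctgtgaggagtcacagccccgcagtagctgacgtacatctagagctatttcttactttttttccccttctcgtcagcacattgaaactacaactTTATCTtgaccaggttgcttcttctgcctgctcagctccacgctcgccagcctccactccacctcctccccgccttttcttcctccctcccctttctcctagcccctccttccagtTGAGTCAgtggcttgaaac
Gja5, chr3:97032152-97032401, plus strand: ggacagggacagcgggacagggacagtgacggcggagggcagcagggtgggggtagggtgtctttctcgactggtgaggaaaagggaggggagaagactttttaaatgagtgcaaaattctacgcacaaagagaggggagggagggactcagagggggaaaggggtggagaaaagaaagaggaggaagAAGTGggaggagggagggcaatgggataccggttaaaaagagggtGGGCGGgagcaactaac
Jup, chr11:100397791-100398040, minus strand: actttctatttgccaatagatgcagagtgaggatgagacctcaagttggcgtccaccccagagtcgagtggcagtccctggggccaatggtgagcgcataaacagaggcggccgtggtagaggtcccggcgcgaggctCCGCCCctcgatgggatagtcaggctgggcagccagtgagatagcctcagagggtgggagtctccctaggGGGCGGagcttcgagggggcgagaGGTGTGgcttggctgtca
The Gja1 promoter held 1 GATA and 1 AP-1 match. The Gja5 promoter held 1 GC box and 1 NKX2-5 core at 56.4% GC, and the Jup promoter 2 GC boxes and 1 T-box core at 62.0% GC. The median GC content of all 32851 RefSeq promoters scanned was 52.4%. Of these, 32.7% held the GC box, 9.99% the GATA site, 40.7% the NKX2-5 core, 16.3% the T-box core and 6.75% the AP-1 site. A match describes these letters only and is not a bound site.

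On GRCm38, with GENCODE vM21, the genes lie on 6 chromosomes. The connexins are Gja1 at chr10:56377330-56402513 (plus strand), Gja5 at chr3:96904693-97077416 (plus) and Gjc1 at chr11:102799579-102819700 (minus). Gja1 and Gjc1 have their coding sequence in 1 exon. The plaque genes are Dsp at chr13:38151294-38198577 (plus), Pkp2 at chr16:16213318-16272712 (plus) and Jup at chr11:100368958-100397763 (minus). All 3 cadherins lie on chromosome 18, Dsc2 at chr18:20030633-20059554 (minus), Dsg2 at chr18:20558074-20604521 (plus) and Cdh2 at chr18:16588877-16809246 (minus). Ctnna3 covers chr10:63430098-65003667 (plus), with the gene Lrrtm3 inside it on the other strand. The libraries do not keep strand, and Gja5 shares 165 exonic bases with Gpr89, which runs the other way, so reads there cannot be told apart. Dsg2 shares 330 exonic bases with the antisense gene Gm16090, and Dsp shares 499 with Gm10129.

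Assigned reads per heart ran from 4415183 to 20827699, with WT 2 and WT 3 the shallowest. Reads of mitochondrially encoded genes made up 32.6% to 58.2% of assigned reads in WT hearts and 10.04% to 15.41% in KO hearts. Fold changes followed base composition: across 12510 genes, Spearman's rho between the log2 fold change and transcript GC content was 0.59. Genes below the lower quartile of GC content (45.2%) had a median log2 fold change of -0.58, and genes above the upper quartile (54.6%) one of 0.58. Genes are not independent replicates, so this is a description. A second fit, called corrected below, took out each heart's trend with GC content and then length, after which rho was 0.0042. That fit also takes out any genotype difference that follows these properties, and which share of the trend is technical was not tested. The labels name no batch or date, so a batch and the genotype cannot be told apart.

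Of the 10 disc genes, Gja1, Dsc2, Dsg2, Cdh2 and Ctnna3 fell in KO hearts and Jup rose, while Gja5, Gjc1, Dsp and Pkp2 did not pass the test (edgeR quasi-likelihood test, Benjamini-Hochberg adjusted p under 0.05). All 10 passed the expression filter. Calls were common among all 12640 genes tested: 51.4% passed, 26.2% as higher and 25.2% as lower in KO. The 6 of 10 called here is close to that share, and the call was lower for 5 of them. The median log2 fold change was -0.48 over the 10 genes and -0.0059 over all genes. In the corrected fit only Dsg2, Cdh2 and Ctnna3 still passed, all lower, where 38.7% of 12511 genes passed, 19.1% as higher and 19.7% as lower. In that fit edgeR called 0 of the 10 genes higher, with 1, Dsp, higher at an unadjusted p under 0.05, and the median over the 10 genes was -0.18. DESeq2, without the correction, called 2 genes higher, Jup and Dsp, and 5 lower.

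**Figure D1:**
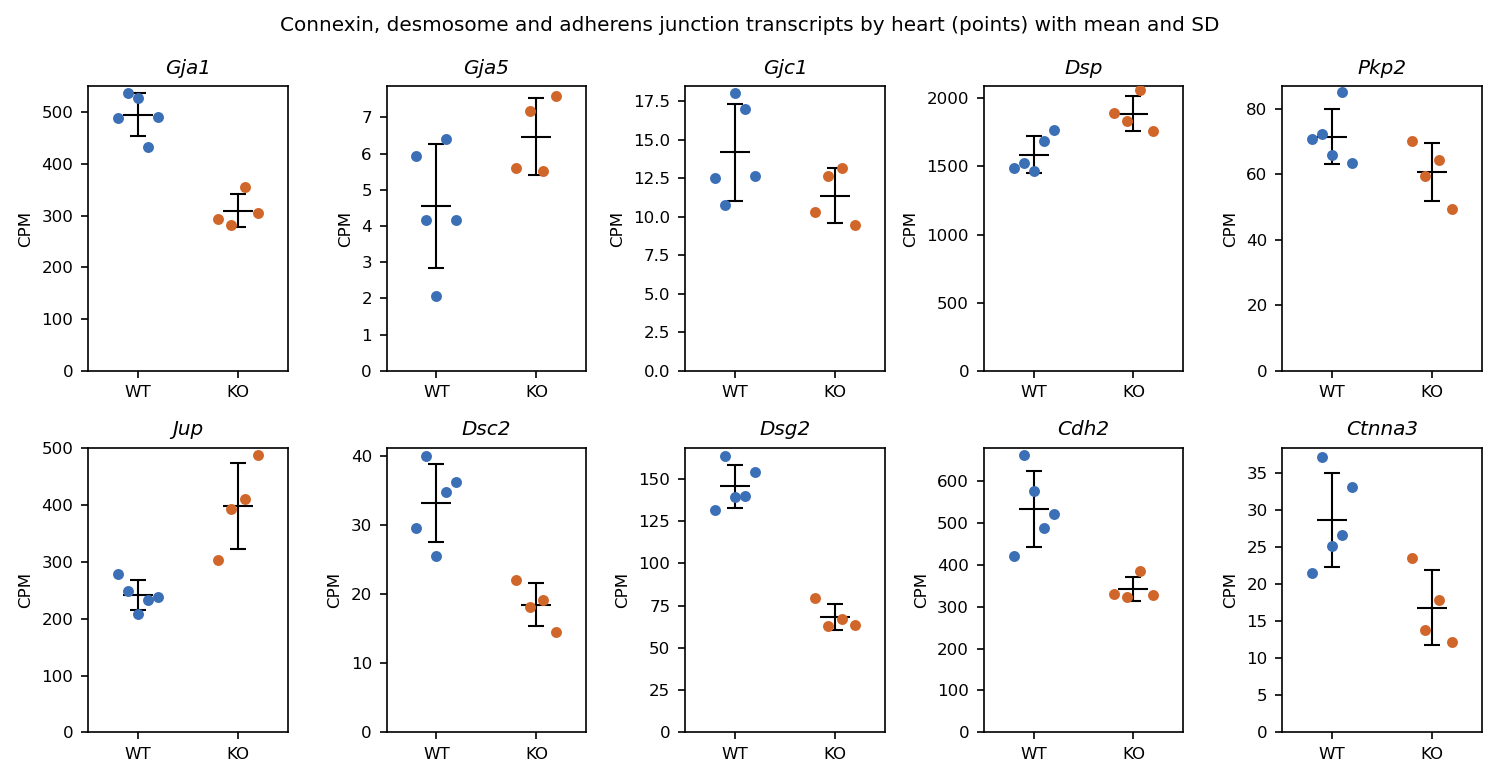
Level of each of the 10 genes in CPM (read counts relative to library size, vertical axis from 0) in 5 WT hearts (blue) and 4 KO hearts (orange), 1 point per heart in the order of the heart numbers, with mean and SD. WT and KO points are apart for Gja1, Jup, Dsc2, Dsg2 and Cdh2 and overlap for the other 5 genes.

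Levels per heart are given as CPM on TMM-scaled library sizes, which compare hearts but not genes of different length. The 2 groups did not overlap for 5 of the 10 genes, against 41.6% of all genes tested. Of the connexins, Gja1 stood at 488.5, 538, 528, 432 and 490.2 CPM in WT hearts 1 to 5 and at 294, 283, 356 and 305 CPM in KO hearts 1 to 4. The lowest WT heart, WT 4, lay above the highest KO heart, KO 3. The mean was 495 ± 41.7 CPM in WT (SD, n = 5) and 309.5 ± 32.2 CPM in KO (SD, n = 4). The log2 fold change was -0.68 ± 0.12 (SE, edgeR adjusted p = 0.000377). Gja1 has the lowest transcript GC content of the 10 genes, 42.2%, and the corrected log2 fold change was -0.12 ± 0.12 (edgeR adjusted p = 0.433), so its fall was no longer called.

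Gja5 had the fewest reads of the 10 genes, with 132, 12, 7, 91 and 36 reads in WT hearts 1 to 5 and 118, 119, 109 and 106 reads in KO hearts 1 to 4. The 7 reads of WT 3 carry an exact 95% Poisson interval of 2.81 to 14.4 reads, which covers counting error only. Its mean was 4.54 ± 1.71 CPM in WT and 6.47 ± 1.07 CPM in KO, and the groups overlapped, with a difference of 0.39 ± 0.24 on the log2 scale (edgeR adjusted p = 0.179). Gjc1 stood at 10.8 to 18.1 CPM in WT and 9.45 to 13.2 CPM in KO, also overlapping. Its log2 fold change was -0.32 ± 0.18 (edgeR adjusted p = 0.140), and in the corrected fit it was 0.01 (adjusted p = 0.975). In bulk RNA, fewer cells of a type and less RNA per cell cannot be told apart.

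Dsg2, the desmoglein of heart muscle, had the smallest p of the 10 genes. It stood at 132, 163, 139.5, 139.6 and 154 CPM in WT hearts 1 to 5 and at 79.4, 63.2, 67.1 and 63.8 CPM in KO hearts 1 to 4. The lowest WT heart was above the highest KO heart, KO 1, which stood above the other 3. On the log2 scale the fall was -1.09 ± 0.12 (edgeR adjusted p = 1.24e-05), and in the corrected fit it was -0.85 ± 0.10 (adjusted p = 3.98e-05). Dsg2 passed in all 18 fits of the counts, from -1.17 to -0.84.

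Dsc2, its desmocollin partner, stood at 29.5, 39.9, 25.5, 34.7 and 36.2 CPM in WT hearts and at 22.04, 18.07, 19.16 and 14.53 CPM in KO hearts. Here too the groups were apart, by a narrow margin between WT 3 and KO 1. The log2 fold change was -0.84 ± 0.16 (edgeR adjusted p = 0.000506). With a transcript GC content of 42.6%, its corrected value was -0.31 ± 0.13 and did not pass (edgeR adjusted p = 0.0772). Reads of Dsg2 per 100 reads of Dsc2 were 446 ± 59.2 in WT and 375 ± 42.9 in KO, and the ranges overlapped (402 to 548 and 350.0 to 439).

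Jup moved the other way. Its CPM was 279, 249, 209, 234 and 239 in WT hearts 1 to 5 and 303, 393, 411 and 488 in KO hearts 1 to 4. KO 1 lay close above WT 1, and the KO hearts spread more widely (SD 75.9 CPM against 25.7). The log2 fold change was 0.72 ± 0.14 (edgeR adjusted p = 0.000742). Jup has the highest transcript GC content of the 10 genes, 58.8%, and its corrected value was 0.06 ± 0.10 (edgeR adjusted p = 0.670).

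Dsp, which anchors the plaque to desmin, had the most reads of the 10 genes. It stood at 1487, 1527, 1466, 1688 and 1766 CPM in WT hearts and at 1892, 1835, 2059 and 1756 CPM in KO hearts, where only KO 4 fell within the WT range. Its log2 fold change was 0.25 ± 0.12 (edgeR adjusted p = 0.0996) and 0.20 ± 0.09 in the corrected fit (adjusted p = 0.0896). DESeq2 gave 0.27 and did call it (adjusted p = 0.0184). Pkp2 overlapped between groups, at 63.4 to 85.1 CPM in WT and 49.25 to 70.02 CPM in KO. Its log2 fold change was -0.24 ± 0.13 (edgeR adjusted p = 0.147) and -0.23 ± 0.11 in the corrected fit (adjusted p = 0.125).

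Cdh2, the classical cadherin of the adherens junction, stood at 420, 662, 575, 486 and 520 CPM in WT hearts 1 to 5. In KO hearts 1 to 4 it stood at 329.8, 323, 384 and 327 CPM, all below the lowest WT heart. WT 2 and WT 3, the shallow libraries, were the highest. KO over WT gave a log2 fold change of -0.64 ± 0.14 (edgeR adjusted p = 0.00155), and -0.60 ± 0.13 in the corrected fit (adjusted p = 0.00246). Without WT 2 and WT 3 it was -0.49 (edgeR adjusted p = 0.0102).

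Ctnna3, the catenin that also binds plakophilin, stood at 21.4, 37.1, 25.2, 26.6 and 33.1 CPM in WT hearts and at 23.6, 13.7, 17.8 and 12.2 CPM in KO hearts. KO 1 lay above WT 1, so the groups overlapped. The log2 fold change was -0.74 ± 0.20 (edgeR adjusted p = 0.00670) and -0.52 ± 0.18 in the corrected fit (adjusted p = 0.0326). With both the correction and the heart number as a block it was -0.48 and did not pass (edgeR adjusted p = 0.111).

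**Figure D2:**
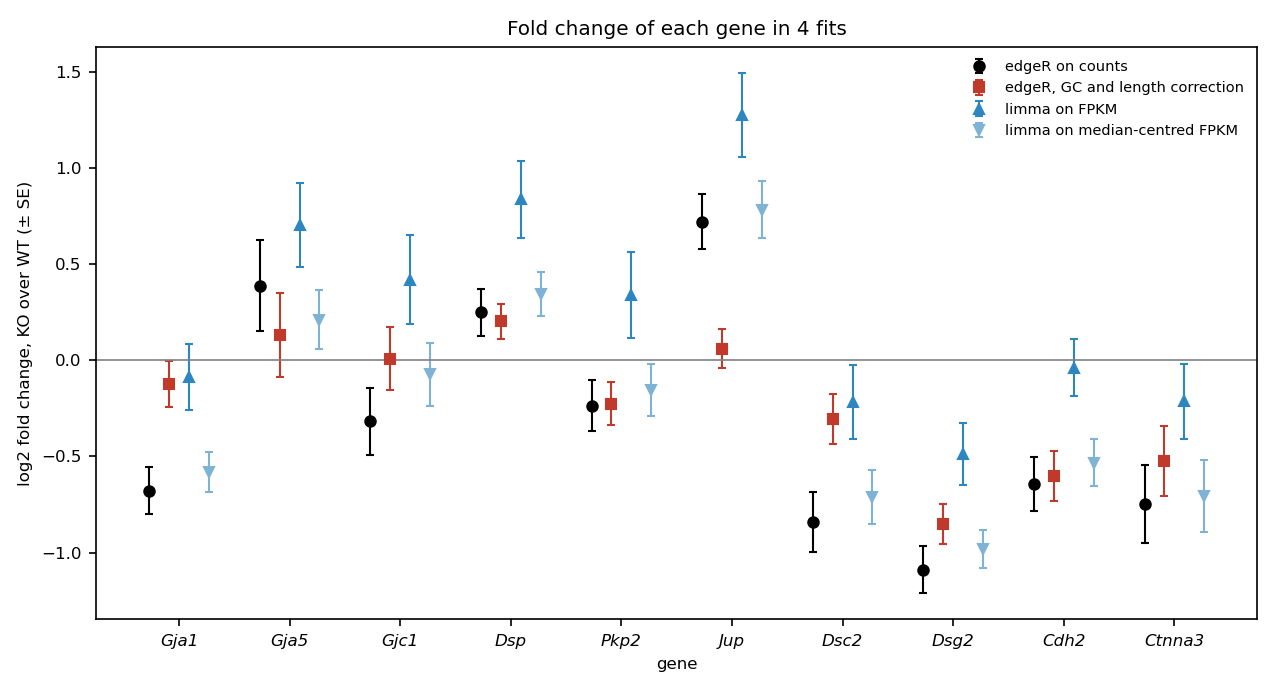
Log2 fold change of KO over WT with its SE for each of the 10 genes (horizontal axis) in 4 fits: edgeR on counts, edgeR with the GC and length correction, limma on FPKM and limma on FPKM centred on each heart's median. Dsg2 lies below 0 in each fit, from -1.09 to -0.49, while Jup goes from 0.72 on counts to 0.06 with the correction and 1.27 in FPKM.

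The correction moved the 10 genes by unequal amounts. It took the largest part from Jup, at the GC-rich end, and from Gja1 and Dsc2, at the GC-poor end. Cdh2 and Pkp2, at 49.5% and 49.6% GC, near the median of 49.97% over all genes tested, moved by 0.04 or less. Dsg2, at 47.5%, went from -1.09 to -0.85. The hearts also differed one by one in their GC slope (log2 per 10 percentage points), from -0.39 to -0.19 in WT and from 0.15 in KO 1 to 0.64 in KO 4. KO 1 was the highest KO heart for 4 of the 10 genes and the lowest for Jup, and KO 4 was the lowest for 5 genes and the highest for Jup and Gja5.

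**Figure D3:**
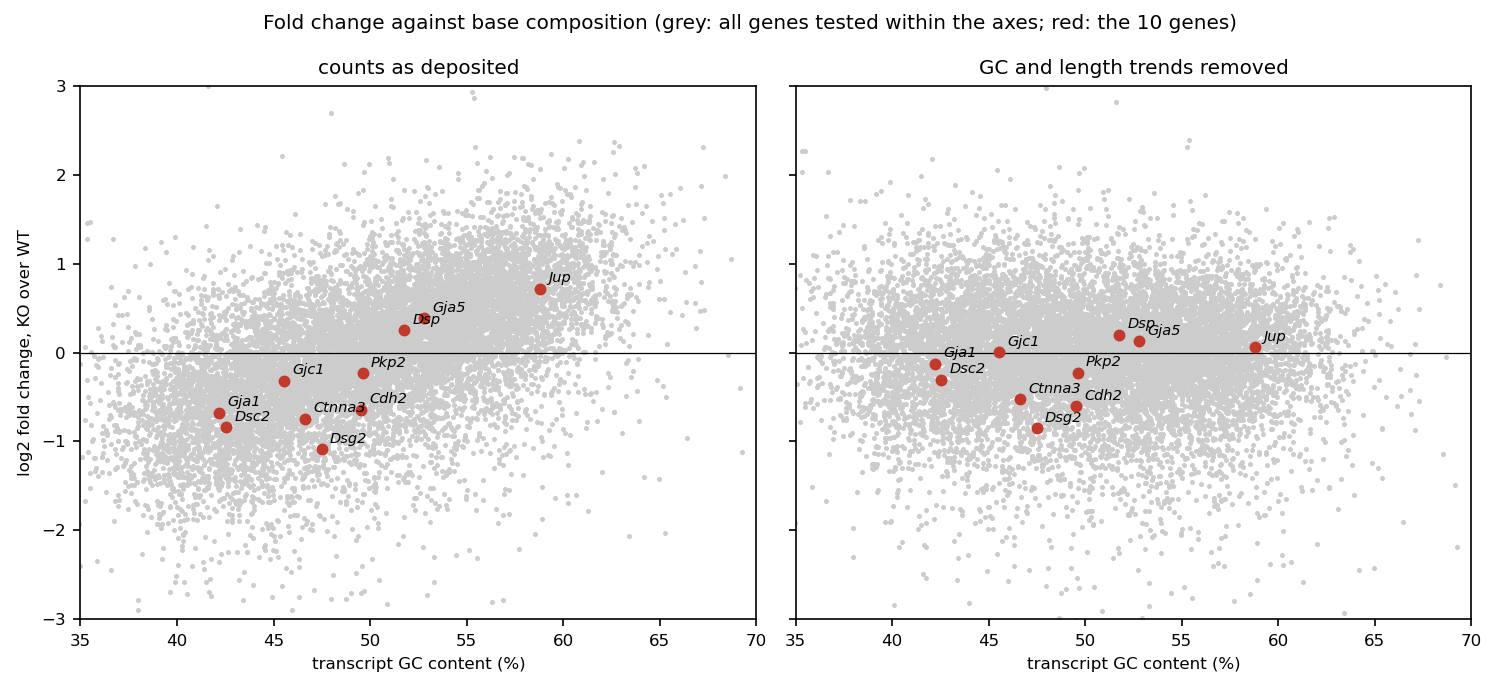
Log2 fold change of KO over WT against transcript GC content (%) for all genes tested within the axes (grey) and for the 10 disc genes (red), from the counts as deposited (left) and with GC and length trends removed (right). On the left Gja1 (42.2% GC) lies at -0.68, Jup (58.8% GC) at 0.72 and Dsg2 (47.5% GC) lowest at -1.09, and on the right Dsg2, Cdh2 and Ctnna3 are the 3 lowest of the 10 genes.

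FPKM (fragments per kilobase of transcript, scaled to depth) allows levels of different genes to be compared. In WT hearts Dsp (139 ± 32.3 FPKM) and Gja1 (138.5 ± 23.3) stood highest, without a fixed order between them, since Dsp was above Gja1 in 2 of 5 hearts. Cdh2 followed (95.6 ± 7.46), below Gja1 in each of the 9 hearts, then Jup (41.7 ± 12.5). Pkp2 (22.03 ± 6.64) and Dsg2 (21.7 ± 3.05) were close together. Ctnna3 (6.76 ± 0.76), Dsc2 (6.403 ± 1.44) and Gjc1 (5.53 ± 1.996) were not separated by their spread, and Gja5 was the lowest in each heart (1.34 ± 0.74). In KO hearts Dsp was above Gja1 in 4 of 4 hearts and Pkp2 above Dsg2 in 4 of 4. Cdh2 was above Jup in 5 of 5 WT hearts and in 2 of 4 KO hearts, and Dsc2 was above Gjc1 in 3 of 5 WT hearts and in 0 of 4 KO hearts.

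The FPKM scale was shifted between the groups: the median log2 fold change over all genes was 0.44 on log2(FPKM + 1), and limma called 53.3% of 12637 genes, 47.2% higher and 6.09% lower in KO. On that scale Jup (1.27 ± 0.22, limma adjusted p = 0.000816), Dsp (0.84 ± 0.20, adjusted p = 0.00493) and Gja5 (0.70 ± 0.22, adjusted p = 0.0188) were called higher. Only Dsg2 was called lower (-0.49 ± 0.16, limma adjusted p = 0.0236), and it lost the call without KO 2, KO 3 or KO 4 (adjusted p = 0.0739, 0.0637 and 0.0653). Gja5 lost it without KO 2 (0.67, adjusted p = 0.0503). Relative to each heart's median the calls were those of the counts plus Dsp. Jup was at 0.78 and Dsp at 0.34 (limma adjusted p = 0.00174 and 0.0273). Gja1 was at -0.58, Dsc2 at -0.71, Dsg2 at -0.98, Cdh2 at -0.53 and Ctnna3 at -0.71 (limma adjusted p between 0.000170 and 0.00962). Gja5 was then at 0.21 and did not pass (limma adjusted p = 0.262).

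Connexins were also set side by side as shares of their summed level. As a share of the summed FPKM of Gja1, Gja5, Gjc1 and Gja4, the arterial endothelial connexin Cx37, Gja1 made up 93.8% ± 1.38 in WT (SD, n = 5, range 91.9% to 95.8%) and 87.3% ± 1.53 in KO (SD, n = 4, 85.9% to 89.1%). Gja4 made up 1.63% ± 0.34 in WT and 5.89% ± 1.34 in KO, and by reads per kilobase of exon 4.77% and 15.8%. Gja5 made up 0.88% ± 0.38 and 1.83% ± 0.38. Neither the Gja1 nor the Gja4 ranges overlapped. With Gja3 and Gjc3 added to the pool, a choice made after seeing the data, Gja1 made up 90.6% ± 1.35 in WT and 82.1% ± 1.85 in KO. Shares are a description without a test, and they move with each gene's GC trend as the fold changes do.

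In the desmosome, Dsp made up overlapping shares of the summed FPKM of the 5 desmosomal genes, 60.2% ± 2.29 in WT and 62.1% ± 2.95 in KO. Dsg2 made up 9.58% ± 0.95 in WT (8.65% to 10.9%) and 3.87% ± 0.53 in KO (3.54% to 4.66%). Dsc2 made up 2.79% ± 0.38 and 1.36% ± 0.25. Jup took 17.96% ± 1.98 in WT and 25.6% ± 4.61 in KO, with overlapping ranges (16.5% to 21.2% and 20.3% to 31.5%). Counted as reads per 100 reads of Dsp, Dsg2 gave 9.21 ± 0.94 in WT and 3.63 ± 0.41 in KO, so each desmoplakin read went with fewer desmoglein reads in every KO heart. Between junctions, Gja1 per 100 reads of Cdh2 was 94.5 ± 13.1 in WT and 90.7 ± 2.74 in KO, and within the adherens junction Ctnna3 per 100 reads of Cdh2 was 5.38 ± 0.73 and 4.94 ± 1.52, both overlapping between groups.

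**Figure D4:**
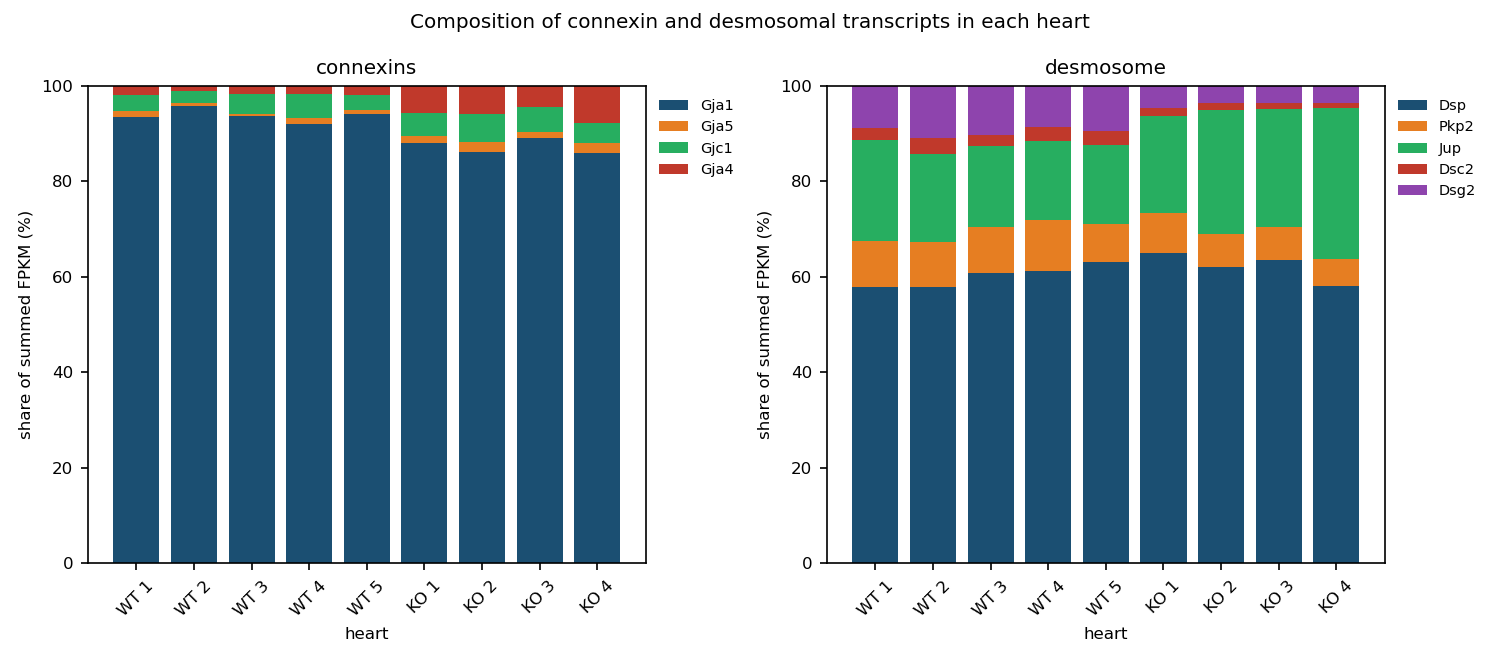
Stacked bars of each gene's share (%) of the summed FPKM in each of the 9 hearts, for 4 connexins (left) and 5 desmosomal genes (right). The Gja4 share is 1.09% to 1.92% in WT hearts and 4.41% to 7.65% in KO hearts, and the Dsg2 share is larger in each WT heart than in any KO heart.

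Over the 9 hearts, the genes with the profile most like that of Gja1, by the root mean square difference of centred log2 CPM among 6849 genes of at least 10 CPM, were Med1 (0.08), Ei24 (0.10) and Ino80d (0.10). Of the 10 genes followed here, Gja5 was below 10 CPM, and Cdh2 was the nearest to Gja1, at rank 17 (0.13), with Dsg2 at rank 818. For Dsp the nearest were Slc12a7 (0.06), Lonp2 (0.07) and Svil (0.07). These profiles were taken without the correction and include the difference between the groups. In the corrected fit the log2 fold changes of Gja1 and Cdh2 were apart, at -0.12 and -0.60.

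Among 30 other genes of the disc, 12 were higher and 4 lower in KO (edgeR), with a median log2 fold change of 0.29, and 8 and 8 in the corrected fit, with a median of 0.15. Over all genes tested the shares were 26.2% higher and 25.2% lower, and with the heart number as a replicate block 7 of the 30 were higher and 4 lower. Tjp1, the ZO scaffold that binds the connexin Cx43 tail, fell to 64.8 ± 4.80 CPM in KO, against 158 ± 18.9 CPM in WT, a log2 fold change of -1.28 ± 0.13 (edgeR adjusted p = 6.18e-06). Ctnnd1, the p120 catenin that holds cadherins at the membrane, fell from 117 ± 12.1 to 60.8 ± 5.14 CPM (-0.94 ± 0.12, edgeR adjusted p = 3.21e-05). Xirp2, an actin-binding protein of the disc, fell from 667 ± 84.7 to 277 ± 68.2 CPM (-1.26 ± 0.16, edgeR adjusted p = 3.33e-05). In FPKM, Xirp2 is listed at 0 for 3 WT hearts and 1 KO heart that had 2246 to 12440 reads of it, so its FPKM value, 1.36 with the opposite sign (limma adjusted p = 0.443), rests on those entries. All 3 also passed in the corrected fit, at -0.97, -0.72 and -0.59 (edgeR adjusted p between 2.52e-05 and 0.000983). In the other direction, Csrp3, the muscle LIM protein, rose from 414 ± 65.8 to 708.5 ± 43.6 CPM (0.77 ± 0.13, edgeR adjusted p = 0.000266) and was at 0.95 in the corrected fit. Flnc, the filamin of striated muscle, and Arvcf, a relative of p120, rose by 0.90 and 1.17, and by 0.37 and 0.54 in the corrected fit. Of the catenins that bind N-cadherin, Ctnna1 rose (0.31, edgeR adjusted p = 0.0332) and Ctnnb1, at 0.31, missed the threshold (adjusted p = 0.0519). These catenins, Ank2, Vasp, Cdh5 and Perp were named after their values were seen. Vasp, an actin regulator, rose by 0.78 and was at 0.19 in the corrected fit (edgeR adjusted p = 0.00134 and 0.305).

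**Figure D5:**
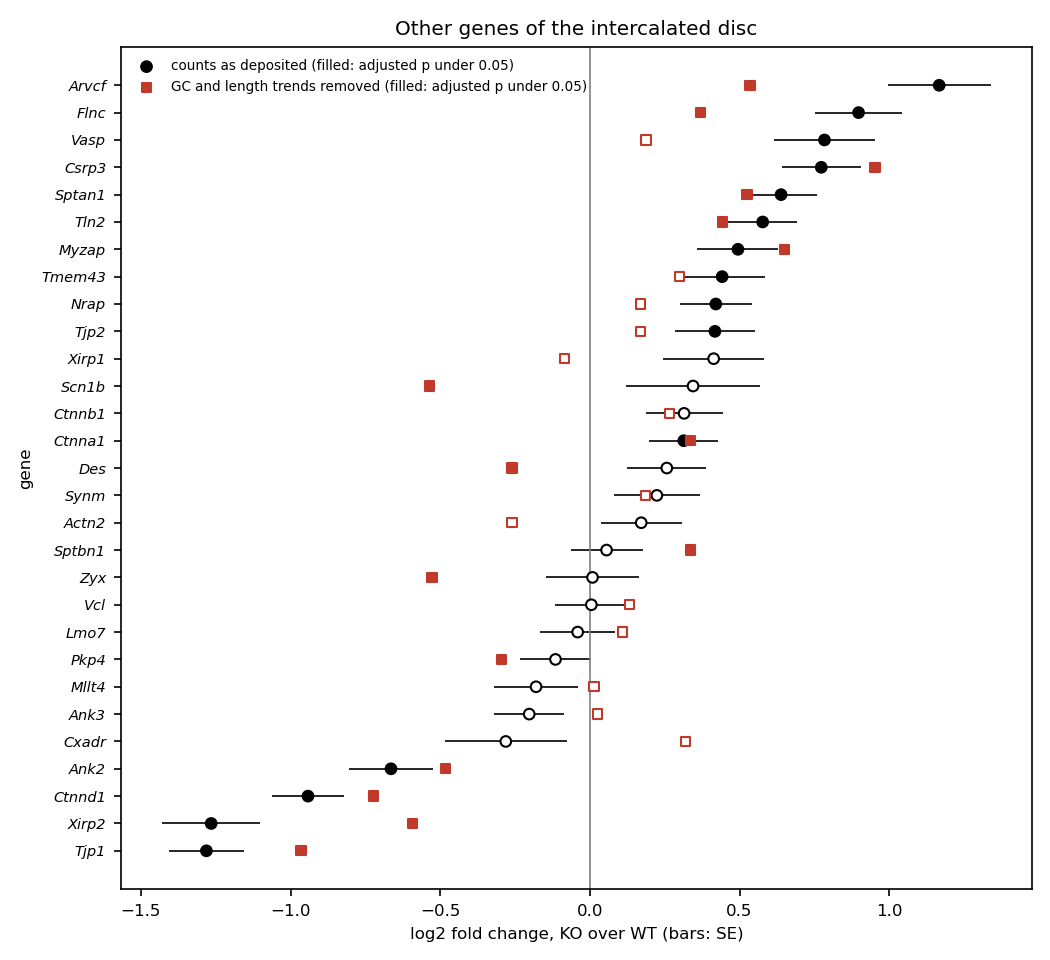
Log2 fold change of KO over WT (horizontal axis) for other genes of the disc (1 gene is not drawn), from the counts (black circles with SE) and with GC and length trends removed (red squares), filled where the edgeR adjusted p is under 0.05. Tjp1, Xirp2, Ctnnd1 and Ank2 are lower and filled on both scales, while Vasp loses its call with the correction.

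Of 20 other connexins and pannexins, 6 passed the expression filter and 4 had no read in any heart. Gja4 rose to 10.6 ± 2.23 CPM in KO, against 4.36 ± 0.87 CPM in WT, a log2 fold change of 1.24 ± 0.19 (edgeR adjusted p = 0.000140) and passed in the corrected fit (0.58, adjusted p = 0.0102). Gja3, a lens connexin also read here, rose by 0.62 and Gjc3 fell by 0.99 (edgeR adjusted p = 0.00187 and 0.00769), but neither passed in the corrected fit (0.32 and -0.54). Of 12 desmosomal genes of epithelia, 3 passed the filter, and 5, among them Dsg4, Dsc1 and Dsc3, had no read in any heart. The plakin Ppl rose by 0.60 (edgeR adjusted p = 0.0104) and was at 0.33 in the corrected fit (adjusted p = 0.181). Evpl, on 3 to 31 reads, was at -0.85 (edgeR adjusted p = 0.0442), and lost the call when WT 3, WT 5 or any 1 KO heart was left out (0.0580 to 0.109). In the corrected fit it was at -1.51 and passed (edgeR adjusted p = 0.00227). Perp, at 41.9 CPM in WT and 52.4 CPM in KO, missed the threshold (0.31, edgeR adjusted p = 0.0512). It passed as higher in the corrected fit (0.43, adjusted p = 0.00567). Of 8 other cadherins, only Cdh13, the membrane-anchored T-cadherin, was called, higher from 112.5 CPM to 163.8 CPM (0.54 ± 0.12, edgeR adjusted p = 0.00175) and at 0.92 in the corrected fit. Cdh5, the endothelial cadherin, was at -0.31 (edgeR adjusted p = 0.0904) and passed as lower in the corrected fit (-0.53, adjusted p = 0.00762). Cdh1, the epithelial cadherin, had at most 1 read per heart.

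Markers of other cells were summed in CPM beside these results. Myh6, which the FPKM table lists at 0 in 2 KO hearts with 845850 and 884771 reads, is given by its counts. Cardiomyocyte markers came to 56790 to 61880 CPM in WT and 76400 to 83470 CPM in KO, with 3 of 7 higher (Myh6, Tnni3 and Mb) and 1 lower (Pln). Myh6 alone averaged 28560 CPM in WT and 41860 CPM in KO. In the corrected fit Mb was still higher (0.35, edgeR adjusted p = 0.0120) and Pln still lower (-0.72, adjusted p = 5.46e-05). Myh6 and Tnni3, at 0.12 and 0.0053, did not pass there (edgeR adjusted p = 0.281 and 0.978). Arterial endothelial markers, Gja4 among them, came to 42.3 to 54.5 CPM in WT and 61.5 to 82.0 CPM in KO, with 3 of the 6, Gja4, Sox17 and Dll4, higher and the other 3 not called. Endothelial sums overlapped, at 732 to 872 CPM in WT and 656 to 780 CPM in KO, with 2 of 7 higher and 2 lower. Fibroblast sums overlapped (526 to 677 CPM and 567 to 1035 CPM), with 3 of 6 markers higher and 2 lower. Mural sums (527 to 742 CPM and 671 to 906 CPM, with 2 of 6 higher and 1 lower) and immune sums (71.7 to 92.6 CPM and 84.8 to 114 CPM, with 2 of 5 tested higher and 2 lower) overlapped as well. So did conduction system sums (68.4 to 102 CPM and 72.7 to 121 CPM), with 2 of 6 tested markers higher and 1 lower. Atrial sums were 23.7 to 43.3 CPM in WT and 134 to 477 CPM in KO with Nppa, a natriuretic peptide gene that stressed ventricle also uses, the only one called. The atrial genes Myl7 (0 to 19 reads), Sln (0 to 4) and Bmp10 (0 or 1) were at or near 0 in each heart. Epithelial markers came to at most 5.15 CPM. In the corrected fit 0 conduction system and 0 immune markers were higher, and 2 of each were lower. Fibroblast markers gave 1 higher and 1 lower there, mural markers 1 and 0, endothelial markers 2 and 1, and arterial endothelial markers 3 and 0. Over all genes the corrected fit called 19.1% higher and 19.7% lower. The part of these cell types in the differences of the disc genes was not tested.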

How the data were processed

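RNA of 9 hearts was read as single-end, non-strand-specific poly(A) libraries, per the labels' protocols. The authors deposited read counts per gene (23457 rows) and FPKM values (23369 rows). The submitters' processing notes name Bowtie2, TopHat, TopHat2 2.0.10, HTSeq, DESeq, edgeR, Cufflinks 2.1 and mm10. Annotation and strand setting were not given in the sources used here. How the mice were bred, housed or matched is not in the labels. The p-values set the difference between the groups against the spread between these hearts, and cannot tell the genotype from such factors.

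Counts were used as deposited and fitted with edgeR 4.0.16 in R 4.3.3: TMM factors, filterByExpr (10 reads, 15 in total), quasi-likelihood tests, Benjamini-Hochberg adjustment over all genes, threshold 0.05. The correction used lowess curves (span 0.3) of each heart on transcript GC content, then length (GENCODE vM21), as offsets, for 12511 genes. FPKM values were fitted with limma 3.58.1 after log2(FPKM + 1), keeping mean values of 0.5 or more, a scale that understates changes of low genes. DESeq2 1.42.0, other factors, left-out hearts and a replicate block were alternatives. The edgeR test without the correction and the limma test were also run on simulated counts. Those counts held no GC or length trend, so the check does not bear on such a trend. No pair of hearts held identical counts.

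The 10 genes and all lists were chosen with earlier results of these data known. Of each list, up to 6 called genes with the smallest p were to be named, and for Gja1 and Dsp the 3 genes of nearest profile. Reads of the deleted gene and of 2 genes of the lists are not reported here.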

Additional observations from a re-analysis of the deposited data

Results flagged for a closer look

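In the KO group, the Cdh2 level of KO 3, 383.8 CPM, stood apart from the other 3 hearts, which lay between 322.9 and 329.8 CPM. The gap made up 0.887 of the group's range. It was still below the lowest WT heart. Of 40 groups of values looked at in this way, chance would set apart about 1 in 20.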

How the results depend on the processing

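The count of disc genes called was 6 with RLE and upper-quartile factors, without the expression filter, without mitochondrially encoded genes and Rn45s, without WT 2 and WT 3, and with each of the 9 hearts left out. It was 7 with DESeq2, 3 with the GC and length correction, and 2 when the correction went with the replicate block, where 3537 genes were called in all. Leaving out hearts gave 5594 to 6752 genes called. Same-numbered WT and KO hearts did not deviate together (correlations -0.113, 0.0408, -0.0648 and -0.259), and 1 of 4 KO hearts correlated best with its own number. The fit with the replicate block, which leaves out WT 5, called 4995 genes, 6 of them disc genes, and 7 of the other 30 disc genes as higher. Among FPKM values, 4 disc genes were called, 2 to 4 with hearts left out, and 7 after median centring, which turned 5961 higher and 769 lower genes into 3214 and 3593. Counted as reads per kilobase, the Gja1 share of the connexins was 88.51% in WT and 75.62% in KO, the Gja4 share 4.766% and 15.81%, the Dsp share of the desmosomal genes 68.67% and 69.66%, and the Jup share in WT 15.75%. With Gja3 and Gjc3 in the pool, added after seeing the data, the Gja1 share was 90.62% and 82.12%. No direction of a called value was reversed. In the shallow WT hearts depth limits Gja5 the most, with 12 and 7 reads.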
